A study of Mus musculus with 20 samples.

Results

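Fatty acid oxidation and the target genes of PPAR alpha were followed through the kidney cortex of mice on a high-fat diet (HFD) by 41 genes. They were named from the steps of the pathway, but chosen with earlier results of these data known. Shares of them set beside all genes therefore only describe the list. The 41 are 1 regulator, 5 genes of activation and the carnitine shuttle, 12 of mitochondrial beta-oxidation, 3 of electron transfer to the respiratory chain, 9 of peroxisomal oxidation, 4 acyl-CoA thioesterases, 4 of lipid binding, uptake and storage, and 3 other PPAR alpha targets. All 41 were matched among the 43430 genes of the count files, and all 41 passed the filter on low counts, which 16152 genes passed in all. The mice were C3H males, 10 weeks old when the HFD began, and all of them ate it for 8 weeks before treatment and through treatment. They were either WT or homozygous for Sweet Pee (SP), a missense change in the gene of the glucose carrier SGLT2, Slc5a2, that every cell of the animal carries. Placebo or MAT2Ai, an inhibitor of the enzyme MAT2A, was then injected 3 times a week for 8 weeks in each genotype, the inhibitor at 10 mg/kg. MAT2A makes S-adenosylmethionine, the methyl donor of the cell. The 4 groups, WT placebo, WT MAT2Ai, SP placebo and SP MAT2Ai, held 5 libraries each.

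The proximal tubule of the kidney cortex burns fatty acids as its main fuel. A fatty acid is joined to coenzyme A, carried into the mitochondrion as an acylcarnitine and cut there in repeated rounds of reactions, while very long and branched chains are first shortened in the peroxisome. PPAR alpha is a nuclear receptor that binds fatty acids, pairs with RXR and raises transcription of most of these genes from a repeat of the hexamer AGGTCA.

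Gene counts per library lay between 53296824 and 79339949. Slc5a2 was at 229 to 518 CPM (counts per 1000000 gene counts, scaled with TMM factors) in the 10 WT libraries and at 40.2 to 85.9 CPM in 8 of the SP libraries. In the libraries labelled SP placebo 1 and 2 its level was 241 and 282 CPM, within the WT range, so every comparison that uses SP placebo was also made without them. WT MAT2Ai 2 stood apart, with 1214 CPM of the injury marker Havcr1 against 13.7 to 74.4 CPM in the other 19 libraries and a summed level of the 16 tubular injury markers of 8612 CPM against 512 to 1083 CPM. The proximal tubule markers Lrp2 and Slc34a1 were present in every library, at 1136 to 1984 CPM and 2887 to 5932 CPM. Of the adipocyte markers Adipoq was at 0 in 7 of 20 libraries and reached 1.41 CPM, Plin1 was at 0 in 8 and reached 1.67 CPM, and Lep was at 0 in 14. Of the other 7 on that list Fabp4, Pparg and Car3 were above 0 in every library, at 11.1 to 43.7, 7.86 to 16.4 and 4.10 to 102 CPM, and Retn, Cidec, Cfd and Ucp1 reached 0.259, 1.86, 5.11 and 11.6 CPM. The list summed to 34.8 to 150.1 CPM in WT MAT2Ai and 33.7 to 127 CPM in SP MAT2Ai. Between these groups 1 of its 6 tested genes was called, Cfd, at 0 to 5.11 CPM in WT MAT2Ai and 0 to 0.0488 CPM in SP MAT2Ai, and the median log2 fold change of the 6 was −2.27. The part of adipose tissue in the results below was not tested. Nothing in the labels says how the 5 animals of a group were housed or drawn, so p-values measure the spread between these libraries.

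Per kilobase of transcript the electron carrier subunit Etfb was the highest of the 41, with a mean of 439 CPM per kb over the 20 libraries. It was followed by Acadm, the medium-chain acyl-CoA dehydrogenase, at 287 CPM per kb, Hadh, the short-chain 3-hydroxyacyl-CoA dehydrogenase, at 268 CPM per kb, Etfa at 241 CPM per kb and the fatty acid carrier Cd36 at 221 CPM per kb. Cpt1a, the liver form of the outer membrane carnitine palmitoyltransferase that lets long chains into the mitochondrion, stood at 108 CPM per kb and was the highest of the carnitine shuttle genes. Among the peroxisomal genes the bifunctional enzyme Ehhadh was highest at 119 CPM per kb, ahead of the membrane transporter Abcd3 at 99.8 CPM per kb. The regulator Ppara lay at 16.5 CPM per kb. The 4 thioesterases, which split acyl-CoA back into fatty acid, ran from 2.45 CPM per kb for Acot3 to 7.52 CPM per kb for Acot2.

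**Figure D1:**
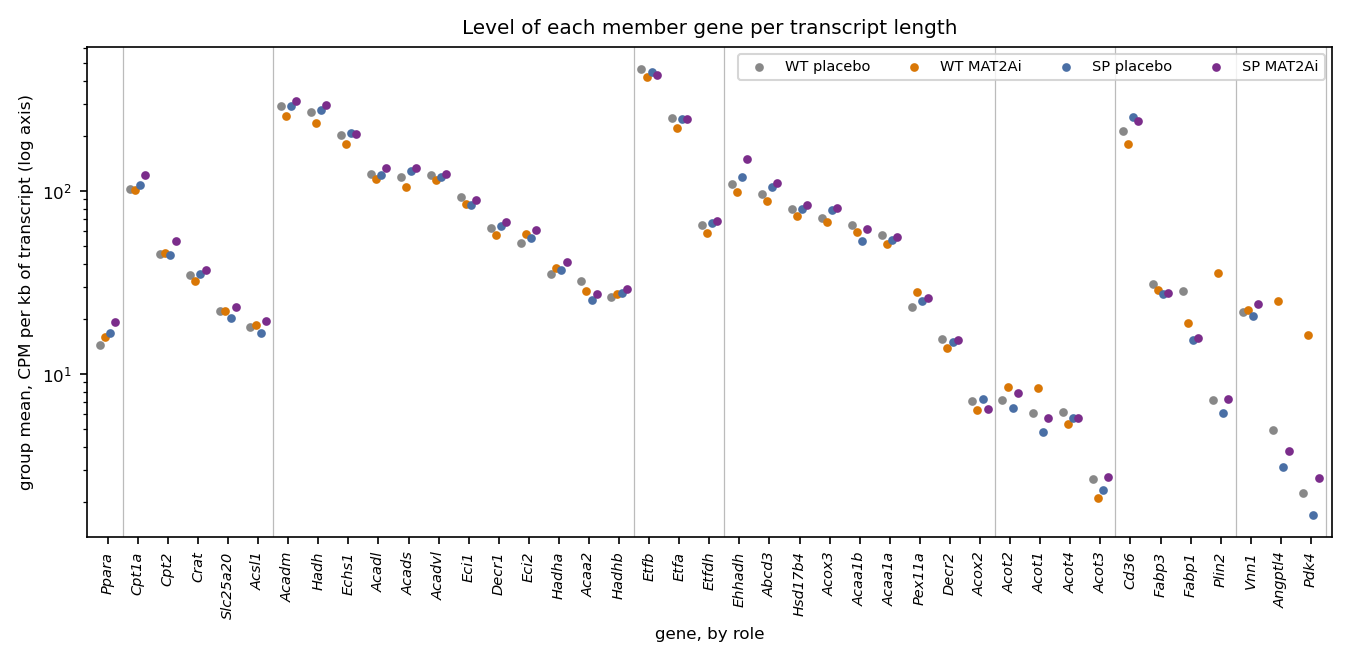
Group mean level of each of the 41 genes in CPM per kb of transcript (vertical log axis), ordered by role and, within a role, from the highest to the lowest gene; 1 point per group of 5 libraries. Etfb is highest at 439 CPM per kb over all libraries, Acot3 is lowest at 2.45 CPM per kb, and the WT MAT2Ai points of Plin2, Angptl4 and Pdk4 are raised by 1 library, WT MAT2Ai 2.

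Within groups most of the genes were steady. The SD of log2 CPM within a group had a median of 0.17 over the 41 genes and of 0.18 over all genes tested. It was smallest for Acadvl, the very long-chain acyl-CoA dehydrogenase, at 0.067, and largest for Angptl4 at 1.24 and Pdk4 at 1.16. WT MAT2Ai 2 held the lowest value of the 20 libraries for 16 of the 41 genes and the highest for 8. The genes lowest there included Acadm, Acads, Hadh, Echs1 and Hadhb of the mitochondrial spiral, Etfa and Etfdh, and the peroxisomal oxidases Acox2 and Acox3. Those highest there were Pdk4, Angptl4, Plin2, Acot1, Acot2, Vnn1, Pex11a and Slc25a20. WT placebo 1 held the highest value for 10 genes, among them Acaa1b, and SP MAT2Ai 3 for 7. For each library the median over the 41 genes was taken of log2(CPM + 0.5) less the gene's mean over all 20 libraries. These library medians had an SD of 0.085 between replicates.

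**Figure D2:**
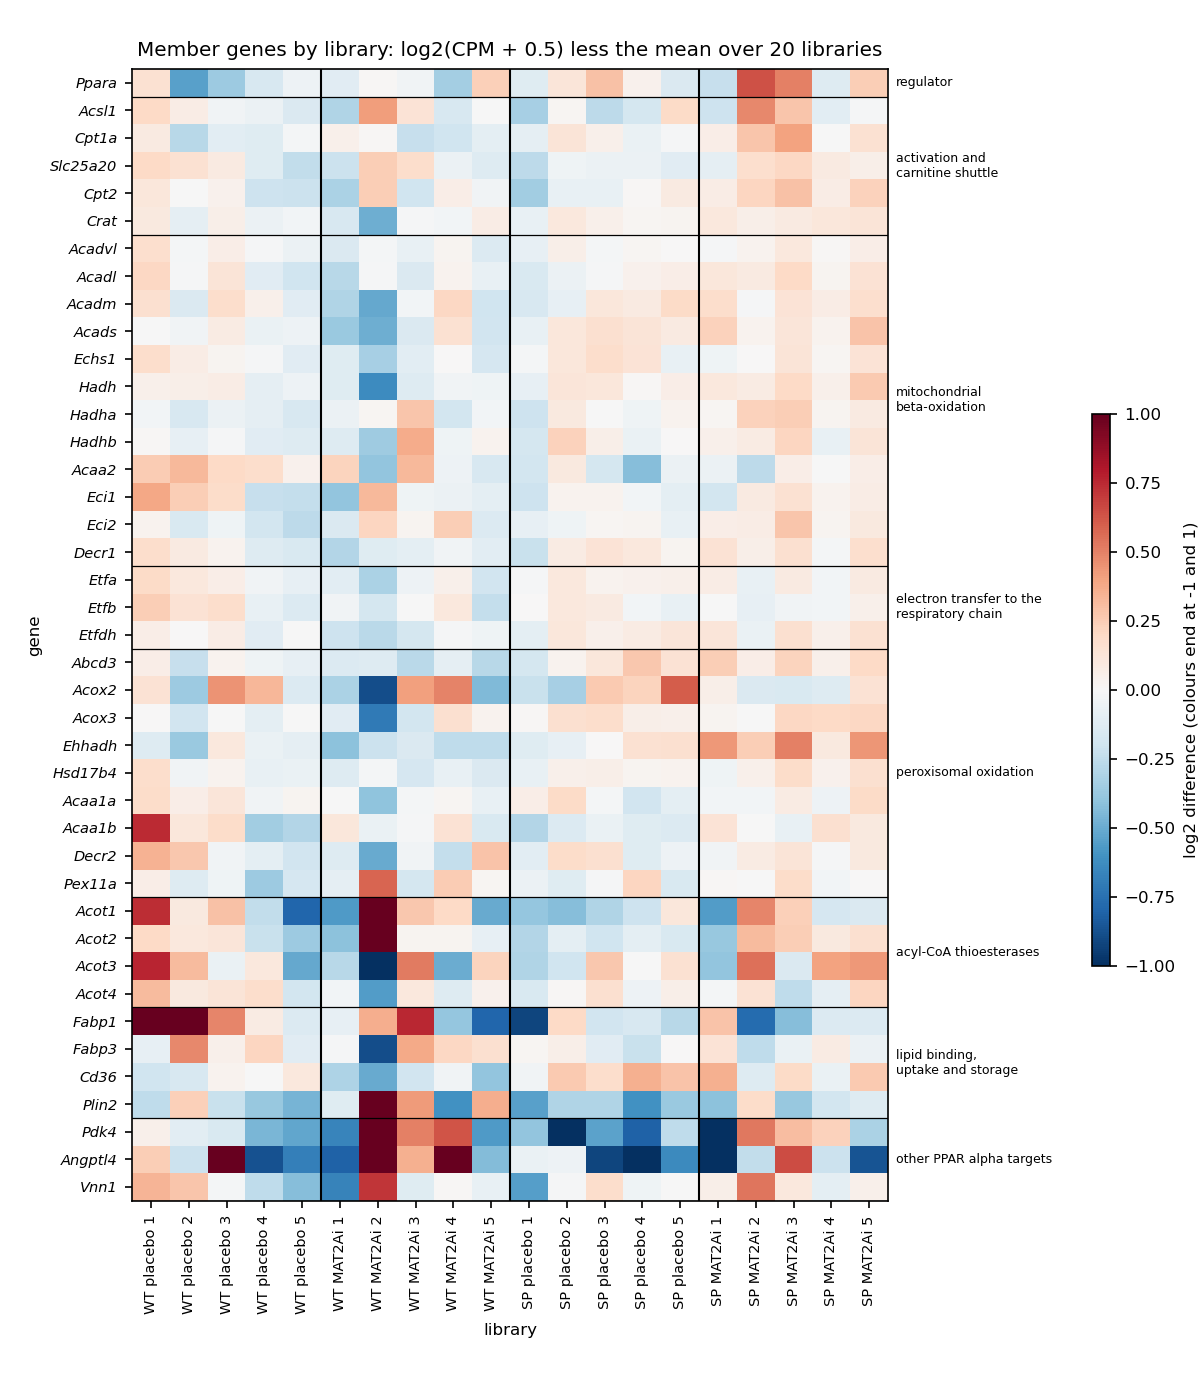
Level of each of the 41 genes (rows, by role) in each of the 20 libraries (columns, by group), as log2(CPM + 0.5) less the mean over all 20 libraries; red is above and blue below that mean, and the colours end at 1 and -1. WT MAT2Ai 2 carries the deepest blues among the oxidation enzymes and the deepest reds at Plin2, Pdk4 and Angptl4, and Ehhadh is red in all 5 SP MAT2Ai libraries.

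The genotypes were compared first under the inhibitor. In SP MAT2Ai against WT MAT2Ai 3 of the 41 genes rose, Ehhadh, Abcd3 and Cd36, and none fell, at an adjusted p under 0.05 (edgeR quasi-likelihood test). Over all genes tested the same test called 0.644% higher. Fewer cells of a type and less RNA per cell cannot be told apart in bulk cortex, here or below. At an unadjusted p under 0.05 there were 20 of the 41 genes, 17 higher and 3 lower, which is 48.8% of them beside 21.8% of all genes tested. DESeq2 called 10 of the 41, 9 of them higher, beside 7.47% of all genes it tested, and limma-voom called 6, all higher, beside 2.46%. The median log2 fold change of the 41 genes was 0.11, and 0.14 without WT MAT2Ai 2, beside −0.02 over all genes tested. In SP MAT2Ai 32 of the 41 (78%) were higher, beside 46.6% of all genes tested. Marker genes of the tubule moved in the same comparison. All 16 tubular injury markers had lower fitted levels in SP MAT2Ai, with a median log2 fold change of −1.55, 15 at an unadjusted p under 0.05 and 4 called lower by edgeR. Without WT MAT2Ai 2 the median was −0.60, with 2 of 16 higher, 7 at an unadjusted p under 0.05 and 1 called. Of 16 proximal tubule markers of segments S1 and S2, 12 were higher, with a median of 0.16 and of 0.07 without that library, and the organic anion carrier Slc22a6 was called at 0.55 (edgeR adjusted p = 0.0266; 0.46 and 0.0273 without WT MAT2Ai 2). Of the 8 markers of the S3 segment 6 were higher, with a median of 0.37 and of 0.21 without that library. The part of injury or of tubule content in the levels of the 41 genes was not tested.

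Ehhadh, whose protein hydrates and then oxidises the shortened chain in the peroxisome, lies on mm10 chromosome 16 from 21761287 to 21787807 on the minus strand (ENSMUSG00000022853). It was at 262, 300.1, 316, 292 and 293 CPM in the 5 WT MAT2Ai libraries and at 472, 414, 494, 373 and 473 CPM in the 5 SP MAT2Ai libraries. Every SP MAT2Ai library was above every WT MAT2Ai library. In WT placebo it was at 319, 269, 375, 334 and 328 CPM and in SP placebo at 322, 331, 349, 388 and 390.1 CPM, so the placebo groups overlapped each other and both reached into the SP MAT2Ai range. The log2 fold change between the genotypes under MAT2Ai was 0.61 ± 0.09 (SE, n = 5 per group, edgeR adjusted p = 0.0223), a 1.52-fold higher level. It was 0.62 without WT MAT2Ai 2 (edgeR adjusted p = 0.0191). The adjusted p lay between 0.0061 and 0.0757 when each of the 20 libraries was left out in turn, with 0.0555 without SP MAT2Ai 3 and 0.0757 without SP MAT2Ai 5.

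Abcd3, which carries acyl-CoA through the peroxisomal membrane, lies on mm10 chromosome 3 from 121758774 to 121815302 on the minus strand (ENSMUSG00000028127). It was at 314, 317, 288, 325 and 285 CPM in WT MAT2Ai and at 409.8, 362, 403, 358 and 398 CPM in SP MAT2Ai. Again the ranges did not overlap. WT placebo held 362, 295, 354, 335 and 327 CPM and SP placebo 306, 355, 373, 417 and 382 CPM, with the lowest SP value in the library labelled SP placebo 1. Abcd3 differed by a log2 fold change of 0.34 ± 0.08 (SE, n = 5 per group, edgeR adjusted p = 0.0397), and 0.35 without WT MAT2Ai 2. The adjusted p reached 0.109 without SP MAT2Ai 5, and passed 0.05 too without SP MAT2Ai 1, 2 or 3 or WT MAT2Ai 3.

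Cd36, which takes long-chain fatty acids up across the plasma membrane, lies on mm10 chromosome 5 from 17781690 to 17888801 on the minus strand (ENSMUSG00000002944). It was at 599, 521, 648, 723 and 563 CPM in WT MAT2Ai and at 949, 679, 845, 705 and 889 CPM in SP MAT2Ai. The ranges overlapped, since WT MAT2Ai 4 lay above SP MAT2Ai 2 and 4. WT placebo held 645, 661, 758, 739 and 797 CPM and SP placebo 723, 888, 835, 947 and 900.2 CPM, so WT MAT2Ai was the lowest group by its mean. For Cd36 the log2 fold change was 0.41 ± 0.10 (SE, n = 5 per group, edgeR adjusted p = 0.0464). It was 0.36 without WT MAT2Ai 2 (edgeR adjusted p = 0.0713), and the call was also lost without any of the other libraries of these 2 groups except WT MAT2Ai 4 and SP MAT2Ai 4, with the highest adjusted p, 0.133, without SP MAT2Ai 5. Leaving out single placebo libraries, which enter through the shared estimate of spread, also moved it across the threshold, and in all Cd36 was called in 4 of the 20 fits that left out 1 library. Cd36 is also made by endothelium and macrophages. The 9 endothelial and 8 macrophage markers were above 0 in every library. The endothelial markers summed to 126 to 292 CPM in WT MAT2Ai and 122 to 170.1 CPM in SP MAT2Ai, and the macrophage markers to 61.8 to 101 CPM and 32.2 to 66.9 CPM. The medians of both sums were lower in SP MAT2Ai, at 144 against 242 CPM and 49.1 against 77.4 CPM. With all libraries the ranges of both sums overlapped. Without WT MAT2Ai 2 the endothelial sums of WT MAT2Ai ran from 188 to 292 CPM, above those of SP MAT2Ai. The macrophage sums still overlapped. None of the 9 endothelial or 8 macrophage markers had a higher fitted level in SP MAT2Ai, with median log2 fold changes of −0.55 and −0.77. Called lower by edgeR were 1 and 3 of them, beside 194 of all 16152 genes tested. The part of these cells in the level of Cd36 was not tested.

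**Figure D3:**
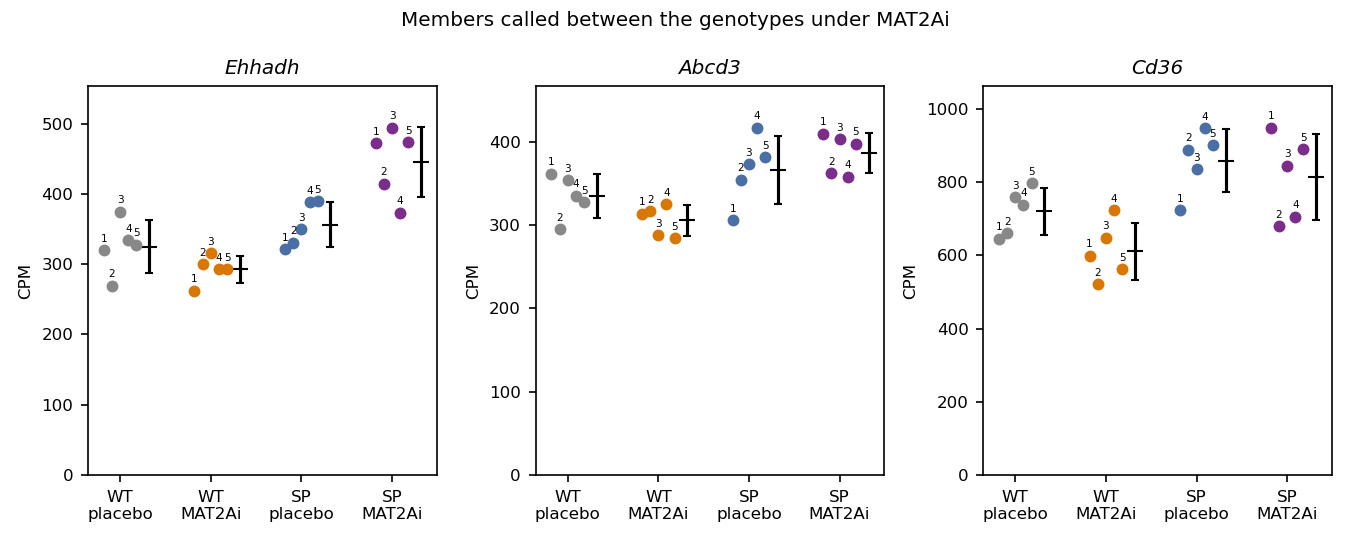
CPM (vertical axes, from 0) of Ehhadh, Abcd3 and Cd36 in each library, numbered by replicate, with the group mean ± SD in black (n = 5 per group). The SP MAT2Ai points lie above all WT MAT2Ai points for Ehhadh (373 to 494 against 262 to 316 CPM) and Abcd3 (358 to 409.8 against 285 to 325 CPM) and overlap them for Cd36.

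The bases before the RefSeq starts of these 3 genes (build GRCm38.p6, minus strand, 250 bases each, 5′ to 3′) are shown because they are the members on which the genotype comparison turns. Capitals mark the hexamer AGGTCA, the unit that a PPAR alpha element repeats, read on either strand. Only the Cd36 stretch holds it, 223 bases before the start. The stretches are those at chr16:21787835-21788084, chr3:121815303-121815552, the outer of 2 RefSeq starts, and chr5:17835897-17836146, a start that lies inside the longer GENCODE gene. They are the reference strain's letters, not those of C3H.
Ehhadh: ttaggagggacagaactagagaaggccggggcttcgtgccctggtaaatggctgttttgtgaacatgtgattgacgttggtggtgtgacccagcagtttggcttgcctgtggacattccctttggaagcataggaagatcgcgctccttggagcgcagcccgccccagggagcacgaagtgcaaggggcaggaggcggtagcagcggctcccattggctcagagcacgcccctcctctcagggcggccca
Abcd3: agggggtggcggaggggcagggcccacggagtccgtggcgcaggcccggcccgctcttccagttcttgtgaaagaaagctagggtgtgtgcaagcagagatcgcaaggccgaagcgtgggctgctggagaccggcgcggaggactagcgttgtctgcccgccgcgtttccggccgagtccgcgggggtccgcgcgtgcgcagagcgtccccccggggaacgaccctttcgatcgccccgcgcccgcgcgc
Cd36: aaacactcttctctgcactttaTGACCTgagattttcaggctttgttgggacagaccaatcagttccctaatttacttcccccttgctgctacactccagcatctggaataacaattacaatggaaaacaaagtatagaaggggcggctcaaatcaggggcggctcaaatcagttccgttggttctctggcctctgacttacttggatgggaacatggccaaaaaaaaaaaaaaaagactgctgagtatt

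Of the 41 genes 35 had a promoter window in the RefSeq table, 250 bases before to 50 after the start. AGGTCA was found on either strand in 9 of the 35 (25.7%), Acadm, Acadvl, Acot3, Acot4, Cd36, Cpt1a, Echs1, Fabp1 and Plin2, and in 18.1% of the 27025 genes of the table. The full direct repeat with 1 base between, AGGTCANAGGTCA, was in none of the 35 and in 0.0481% of all genes. With 1 free base in each hexamer, AGGNCANAGGNCA, it was found in Fabp1 alone and in 0.451% of all genes. A hit of the repeat contains or lies close to the single hexamer, so these counts are not separate. A match is no binding site, and these short windows leave out distal elements.

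The other genes of the genotype comparison under MAT2Ai are best read by step. In mitochondrial beta-oxidation 11 of the 12 genes were higher in SP MAT2Ai, 7 of them at an unadjusted p under 0.05, and the median log2 fold change was 0.15. Acads, the short-chain acyl-CoA dehydrogenase, was nearest to the threshold among the uncalled genes. It was at 174, 161, 204, 251 and 198 CPM in WT MAT2Ai and at 265, 232, 246, 231 and 275 CPM in SP MAT2Ai, where only WT MAT2Ai 4 lay in the SP range. WT placebo held 226, 221, 239, 216 and 218 CPM and SP placebo 215, 245, 252, 247 and 241 CPM. Its log2 fold change was 0.34 ± 0.09 (SE, n = 5 per group, edgeR adjusted p = 0.0524). Hadh ran from 308 to 467 CPM in WT MAT2Ai and from 493 to 571 CPM in SP MAT2Ai, and Decr1, the dienoyl-CoA reductase for unsaturated chains, from 151 to 180.5 CPM and from 183 to 208 CPM. With Ehhadh and Abcd3 these were the 4 of the 41 genes (9.76%) whose ranges did not overlap, beside 3.4% of all genes tested.

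In SP MAT2Ai all 5 genes of activation and the carnitine shuttle had higher fitted levels. So did all 3 electron transfer genes and 8 of the 9 peroxisomal genes. The medians of these roles were 0.21, 0.15 and 0.16 on the log2 scale. In the peroxisome Acox3, a branched-chain acyl-CoA oxidase, was at 179.6 to 329 CPM in WT MAT2Ai and 293 to 339.5 CPM in SP MAT2Ai, and Hsd17b4, the multifunctional protein for branched chains, at 188 to 208 CPM and 205 to 239.5 CPM. Pex11a, a factor of peroxisome division, was at 50.2 to 85.0 CPM in WT MAT2Ai and 55.6 to 64.3 CPM in SP MAT2Ai, and its log2 fold change of −0.11 turned to 0.02 without WT MAT2Ai 2. Among the thioesterases Acot3 and Acot4 had higher fitted levels, and Acot1 and Acot2 stood at log2 fold changes of −0.55 and −0.10, which turned to 0.12 and 0.21 without WT MAT2Ai 2. The 3 genes that were lower at an unadjusted p under 0.05 were Angptl4, Plin2 and Pdk4, which are described with WT MAT2Ai below.

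**Figure D4:**
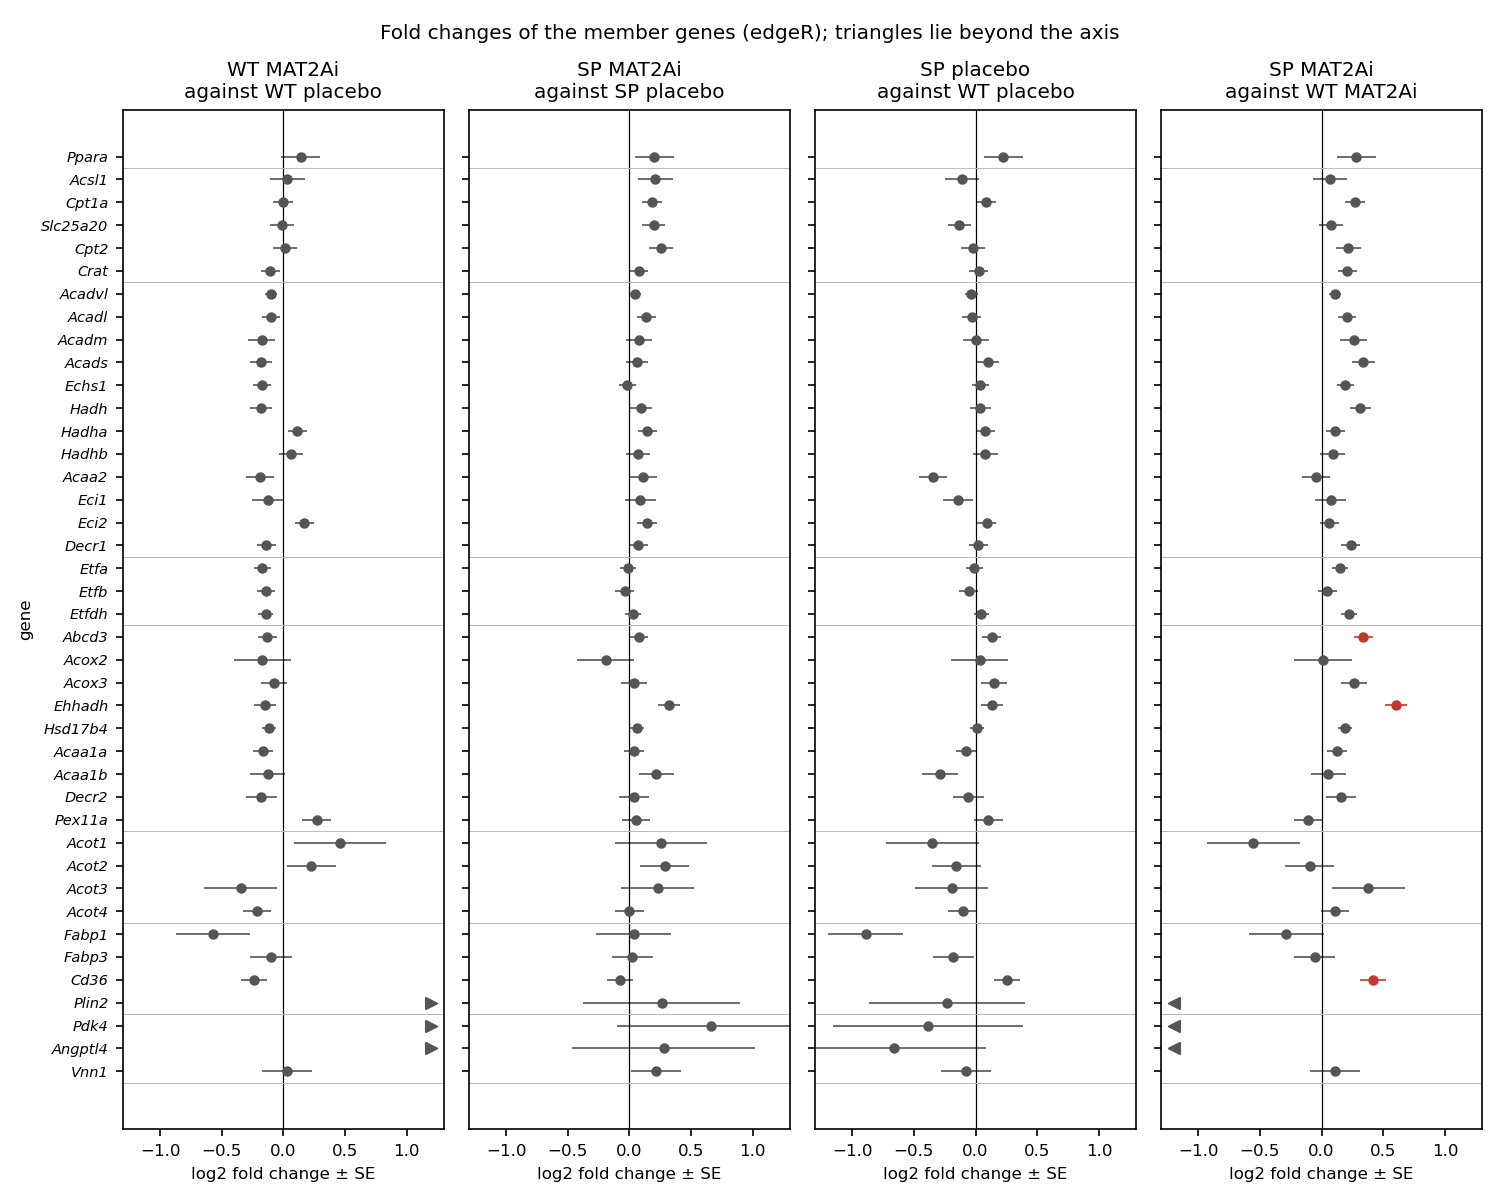
Log2 fold change ± SE (horizontal axes) of each of the 41 genes (rows, by role) in the 4 comparisons of 2 groups, 5 libraries against 5; red marks an edgeR adjusted p under 0.05 and triangles mark values beyond the axis. Only Abcd3, Ehhadh and Cd36 in SP MAT2Ai against WT MAT2Ai are red, and the triangles are Plin2, Pdk4 and Angptl4.

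Averaged over both treatments, 10 SP libraries against 10 WT libraries, the same 3 genes rose in SP. This average contains the comparison just given and is no second set of animals. It called 3 of the 41 genes, beside 0.607% of all genes tested called higher. The log2 fold change was 0.37 ± 0.06 for Ehhadh (SE, edgeR adjusted p = 0.0176), 0.33 ± 0.07 for Cd36 (edgeR adjusted p = 0.0357) and 0.23 ± 0.05 for Abcd3 (edgeR adjusted p = 0.0408). Acads stood at 0.22 ± 0.06 (SE, edgeR adjusted p = 0.0793). At an unadjusted p under 0.05 were 18 of the 41, 43.9% beside 19.6% of all genes tested, 13 of them higher and 5 lower in SP. DESeq2 called 6 (5.55% of all genes) and limma-voom 11 (8.3% of all genes). The 16 injury markers had a median log2 fold change of −0.78 in this average, and −0.44 without WT MAT2Ai 2. The proximal tubule markers of S1 and S2 had a median of 0.08 and those of S3 of 0.30. Without WT MAT2Ai 2 these medians were 0.04 and 0.22. Without the libraries labelled SP placebo 1 and 2 the values were 0.41 for Ehhadh, 0.36 for Cd36 and 0.28 for Abcd3, and the 3 calls stood. Ehhadh kept an adjusted p of at most 0.0458 whichever library was left out, while Cd36 and Abcd3 reached 0.0841 and 0.0883 and were called in 10 and 7 of the 20 fits that left out 1 library.

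In SP mice the inhibitor gave no call among the 41 genes. In SP MAT2Ai against SP placebo none of the 41 was called by edgeR, beside 0.0186% of all genes tested. Nor was any called by DESeq2 (0.168% of all genes) or limma-voom (0.105%). At an unadjusted p under 0.05 were 3 of the 41, all higher, or 7.32% beside 5.92% of all genes tested. No member's groups were apart, beside 1.58% of all genes. A higher fitted level with MAT2Ai was seen in 35 of the 41 (85.4%), beside 50.6% of all genes tested. The count was 33 without the libraries labelled SP placebo 1 and 2. The median log2 fold change was 0.08 beside 0.00 over all genes tested, and the SD of library medians between replicates was 0.085. Library medians of the 41 ran from −0.15 to 0.05 in SP placebo and from 0.02 to 0.16 in SP MAT2Ai, so they overlapped. The lowest was the library labelled SP placebo 1. Genes are not replicates, and no test was made over them.

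Ehhadh had the smallest p of the 41, with a log2 fold change of 0.32 ± 0.09 from the values given above (SE, edgeR adjusted p = 0.586). The value was 0.25 without the libraries labelled SP placebo 1 and 2. The next 3 belong to the carnitine shuttle, and all 5 genes of activation and the carnitine shuttle had a higher fitted level with MAT2Ai. Cpt2, the inner membrane carnitine palmitoyltransferase, was at 86.9, 105, 105, 112 and 118 CPM in SP placebo and at 116, 129, 136, 117 and 130.2 CPM in SP MAT2Ai. Only SP placebo 5 lay within the MAT2Ai range, and the log2 fold change was 0.25 ± 0.10 (SE, edgeR adjusted p = 0.833). In WT placebo Cpt2 was at 119.6, 111, 114, 95.8 and 95.3 CPM and in WT MAT2Ai at 88.8, 131, 96.6, 116 and 108 CPM, which overlapped throughout.

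Cpt1a, the gate of mitochondrial oxidation (mm10 chromosome 19, 3322334 to 3385733), was at 436, 508, 481, 445 and 462 CPM in SP placebo and at 486, 564, 614, 463 and 517 CPM in SP MAT2Ai. The groups overlapped between 463 and 508 CPM, and the log2 fold change was 0.18 ± 0.08 (SE, edgeR adjusted p = 0.834). WT placebo held 494, 384, 433, 427 and 458 CPM and WT MAT2Ai 482, 469.6, 397, 404 and 435 CPM, with a log2 fold change of −0.01 ± 0.08. Slc25a20, the carnitine-acylcarnitine exchanger of the inner membrane, was at 32.3, 37.6, 37.3, 37.2 and 35.9 CPM in SP placebo and at 36.3, 43.7, 44.7, 41.3 and 40.4 CPM in SP MAT2Ai, where SP MAT2Ai 1 lay among the placebo values. Its log2 fold change was 0.20 ± 0.09 (SE, edgeR adjusted p = 0.848). In WT placebo it was at 44.7, 43.0, 41.4, 35.6 and 32.6 CPM and in WT MAT2Ai at 33.4, 45.9, 43.7, 37.2 and 35.4 CPM.

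Ppara itself (mm10 chromosome 15, 85734983 to 85802819) was at 61.4, 37.7, 42.8, 49.4 and 53.3 CPM in WT placebo and at 51.0, 55.7, 54.0, 43.7 and 65.4 CPM in WT MAT2Ai. It was at 50.7, 60.2, 68.0, 57.1 and 49.9 CPM in SP placebo and at 47.2, 86.2, 78.7, 50.5 and 65.6 CPM in SP MAT2Ai. All 4 groups overlapped, with the highest values in SP MAT2Ai 2 and 3 and the lowest in WT placebo 2. The log2 fold change was 0.20 ± 0.16 for MAT2Ai in SP, 0.14 ± 0.16 for MAT2Ai in WT and 0.25 ± 0.11 for SP averaged over treatment (SE), none of them called.

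In WT mice MAT2Ai called none of the 41 genes either, and edgeR called 0.0% of all genes tested. DESeq2 and limma-voom called none of the 41, beside 1.34% and 0.0124% of all genes. At an unadjusted p under 0.05 were 10 of the 41, 5 higher and 5 lower, which is 24.4% beside 15.7% of all genes tested. No member's groups were apart, beside 2.19% of all genes. Here 28 of the 41 had a lower fitted level with MAT2Ai and 13 (31.7%) a higher one, beside 52.6% of all genes tested. The median log2 fold change was −0.11, beside 0.01 over all genes tested. Without WT MAT2Ai 2, 31 of the 41 were lower and the median was −0.10. All 16 tubular injury markers had a higher fitted level with MAT2Ai in WT mice, with a median log2 fold change of 1.65, and 15 of 16 with a median of 0.44 without WT MAT2Ai 2. Of the 16 proximal tubule markers of S1 and S2 only 3 were higher, with a median of −0.15, and of −0.06 without WT MAT2Ai 2. Of the 8 S3 markers 3 were higher, with a median of −0.24, and of −0.09 without that library. The part of injury or of tubule content in the levels of the 41 genes was not tested here either.

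The 3 members with the smallest p took most of their size from 1 library. Pdk4, the pyruvate dehydrogenase kinase that turns glucose oxidation down when fat is burned, was at 9.48, 8.45, 8.18, 6.5 and 6.22 CPM in WT placebo and at 5.60, 244, 13.1, 14.3 and 6.0 CPM in WT MAT2Ai. Plin2, which coats lipid droplets, was at 13.0, 18.4, 13.3, 11.9 and 11.1 CPM in WT placebo and at 14.2, 269, 21, 10.1 and 20.1 CPM in WT MAT2Ai. Angptl4, a secreted inhibitor of lipoprotein lipase, was at 17.9, 12.9, 33.3, 8.00 and 9.19 CPM in WT placebo and at 8.38, 305, 19.4, 72.2 and 11.0 CPM in WT MAT2Ai. In each gene the high value is WT MAT2Ai 2, and for Angptl4 WT MAT2Ai 4 was second. The log2 fold changes were 2.87 ± 0.80 for Pdk4 (SE, edgeR adjusted p = 0.156), 2.31 ± 0.65 for Plin2 (edgeR adjusted p = 0.163) and 2.35 ± 0.76 for Angptl4 (edgeR adjusted p = 0.183). Without WT MAT2Ai 2 they were 0.33, 0.27 and 0.76.

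WT MAT2Ai 2 stood 33.8 times above the median of the other 19 libraries for Pdk4, 24.3 times for Angptl4, 21.5 times for Plin2, 4.17 times for the cytosolic thioesterase Acot1 and 2.16 times for its mitochondrial relative Acot2. It stood at 0.63 times that median for Hadh, 0.66 times for Acadm and 0.60 times for Acox3. The same library holds the highest injury markers, as given above, and the part of injury in these levels was not tested. In the SP groups Pdk4 was at 6.83, 4.08, 6.16, 5.0 and 7.57 CPM with placebo and at 4.05, 13.4, 11.4, 10.8 and 7.24 CPM with MAT2Ai. Plin2 was at 10.5, 12.5, 12.5, 10.1 and 11.9 CPM in SP placebo and at 11.6, 17.7, 11.8, 13.6 and 14.1 CPM in SP MAT2Ai. Angptl4 was at 14.4, 14.5, 7.72, 5.43 and 9.49 CPM in SP placebo and at 4.92, 12.6, 24.0, 12.8 and 8.05 CPM in SP MAT2Ai. The SP groups overlapped in all 3 genes, and no SP library came near WT MAT2Ai 2.

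**Figure D5:**
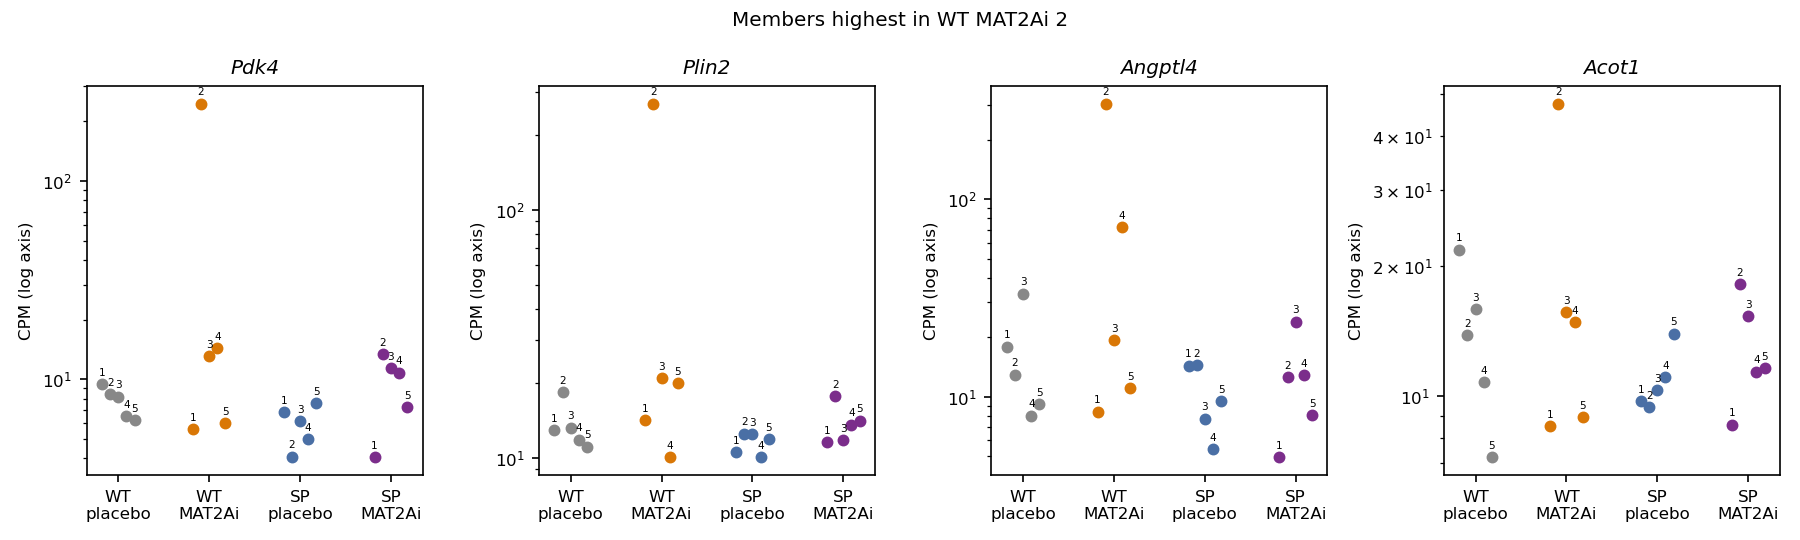
CPM (vertical log axes) of Pdk4, Plin2, Angptl4 and Acot1 in each library, numbered by replicate, by group (n = 5 per group). WT MAT2Ai 2 is the top point in every panel, at 244, 269, 305 and 47.5 CPM, and the other 19 libraries overlap across groups.

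Etfa, the large subunit of the flavoprotein that takes electrons from the acyl-CoA dehydrogenases, had the next smallest p in WT mice. It was at 382, 360.1, 351, 326 and 316 CPM in WT placebo and at 312, 268, 322, 347 and 293 CPM in WT MAT2Ai, overlapping between 316 and 347 CPM. In the SP groups it was at 331, 359.7, 344, 344 and 346 CPM with placebo and at 352, 317, 357, 329 and 357 CPM with MAT2Ai. Its log2 fold change was −0.17 ± 0.07 in WT mice (SE, edgeR adjusted p = 0.239) and −0.01 ± 0.07 in SP mice. All 3 electron transfer genes, 9 of the 12 mitochondrial genes and 8 of the 9 peroxisomal genes had a lower fitted level in WT MAT2Ai than in WT placebo. Median log2 fold changes of these roles were −0.14, −0.13 and −0.13, and −0.01 for activation and the carnitine shuttle.

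Under placebo the genotypes gave no call among the 41 genes. In SP placebo against WT placebo none of the 41 was called by edgeR, as 0.0% of all genes tested, nor by DESeq2 (0.0435% of all genes) or limma-voom (0.0248%). At an unadjusted p under 0.05 were 3 of the 41, 1 higher and 2 lower, which is 7.32% beside 3.75% of all genes tested. The median log2 fold change was −0.02, and 19 of the 41 (46.3%) were higher in SP, beside 50% of all genes tested. Without the libraries labelled SP placebo 1 and 2 the median was 0.03, and 22 were higher. Acox3 was the only member whose groups were apart (2.44%, beside 1.19% of all genes). It was at 258 to 295 CPM in WT placebo and 296 to 332 CPM in SP placebo. The nearest libraries were at 295 and 296 CPM, the latter labelled SP placebo 1. Without the libraries labelled SP placebo 1 and 2 the SP placebo values ran from 305 to 332 CPM.

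Acaa2, the mitochondrial 3-ketoacyl-CoA thiolase that ends each round, had the smallest p. It was at 51.0, 53.3, 49.0, 48.2 and 43.8 CPM in WT placebo and at 37.4, 45.7, 37.7, 31.6 and 40.8 CPM in SP placebo, where only SP placebo 2 reached the WT range. The log2 fold change was −0.35 ± 0.12 (SE, edgeR adjusted p = 1.0), and −0.43 without the libraries labelled SP placebo 1 and 2. WT MAT2Ai held 49.9, 32.3, 53.3, 41.2 and 38.1 CPM and SP MAT2Ai 40.9, 35.5, 44.6, 42.5 and 44.7 CPM. Acaa1b, a peroxisomal thiolase, was at 168, 108, 114, 78.3 and 81.3 CPM in WT placebo and at 81.2, 90.5, 95.6, 91.9 and 90.9 CPM in SP placebo, a log2 fold change of −0.29 ± 0.14 (SE, edgeR adjusted p = 1.0). WT placebo 1 stood well above the rest, and WT placebo 4 lay under every SP placebo value. WT MAT2Ai held 108, 95.2, 99.0, 110.3 and 90.0 CPM of it and SP MAT2Ai 109.8, 99.8, 94.9, 112 and 107 CPM.

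Fabp1, the liver fatty acid binding protein and a long-known PPAR alpha target, lies on mm10 chromosome 6 from 71199827 to 71205023. It was at 21.7, 23.0, 14.2, 10.6 and 9.03 CPM in WT placebo and at 5.06, 11.6, 8.72, 8.89 and 8.15 CPM in SP placebo. WT MAT2Ai held 9.42, 13.0, 17.2, 7.53 and 5.57 CPM and SP MAT2Ai 12.3, 5.67, 7.30, 9.05 and 9.03 CPM. The high values were WT placebo 1 and 2, and all groups overlapped. The log2 fold change between the placebo groups was −0.89 ± 0.30 (SE, edgeR adjusted p = 1.0), and that of Cd36 was 0.25 ± 0.10 (SE, edgeR adjusted p = 1.0). Fabp1 is the 1 member with the looser repeat, so the stretch before its first annotated exon is shown (GRCm38.p6, chr6:71199629-71199826, plus strand, 5′ to 3′, 198 bases), with the repeat in capitals, read on the minus strand and ending 55 bases before the RefSeq start.
Fabp1: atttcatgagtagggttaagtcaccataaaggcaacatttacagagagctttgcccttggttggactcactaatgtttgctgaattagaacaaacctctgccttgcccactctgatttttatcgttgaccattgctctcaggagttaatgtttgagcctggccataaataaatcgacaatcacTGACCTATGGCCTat

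Whether the inhibitor acted differently in the 2 genotypes was tested by the interaction of genotype and treatment, which uses all 4 groups and so shares its libraries with the comparisons above. None of the 41 was called by edgeR, as 0.0% of all genes tested, by DESeq2 (0.00621%) or by limma-voom (0.0%). At an unadjusted p under 0.05 were 5 of the 41, 12.2% beside 5.59% of all genes tested. The 34 genes with a positive term, that is with a more positive fold change in SP, had among them Ehhadh at 0.47 ± 0.13 (SE, edgeR adjusted p = 0.842), Acadl, the long-chain acyl-CoA dehydrogenase, at 0.24 ± 0.11 (edgeR adjusted p = 0.842) and Hadh at 0.27 ± 0.12 (edgeR adjusted p = 0.842). Plin2 was negative at −2.05 ± 0.90 (SE, edgeR adjusted p = 0.842) and at −0.01 without WT MAT2Ai 2. The median over the 41 genes was 0.18 beside −0.01 over all genes, and 0.18 without WT MAT2Ai 2. It was 0.16 without the libraries labelled SP placebo 1 and 2. A positive term was held by 82.9% of the 41 and by 47.2% of all genes tested. For the injury markers the median was −1.53, and −0.30 without WT MAT2Ai 2. Of the 16 proximal tubule markers of S1 and S2, 13 had a positive term. Their median was 0.16, and 0.09 without WT MAT2Ai 2. Of the 8 S3 markers 6 had a positive term, with a median of 0.19, and of 0.04 without WT MAT2Ai 2. The part of injury or of tubule content in the interaction was not tested.

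MAT2Ai averaged over genotype, 10 libraries against 10, called none of the 41 by edgeR (0.223% of all genes), DESeq2 (1.19%) or limma-voom (0.433%), and 6 of them, 14.6% beside 14.7% of all genes tested, had an unadjusted p under 0.05. The smallest p belonged to Pdk4 at a log2 fold change of 1.77 ± 0.55 (SE, edgeR adjusted p = 0.198), Plin2 at 1.28 ± 0.45 and Angptl4 at 1.32 ± 0.53, which fell to 0.49, 0.26 and 0.52 without WT MAT2Ai 2 (edgeR adjusted p = 0.24 for Plin2 and 0.272 for Angptl4 with all libraries). Eci2, an isomerase for unsaturated chains, was at 0.16 ± 0.05 (SE, edgeR adjusted p = 0.24). It ran from 81.5 to 101 CPM in WT placebo, 88.9 to 116 CPM in WT MAT2Ai, 92.5 to 100.1 CPM in SP placebo and 100.1 to 119 CPM in SP MAT2Ai.

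Hadha and Hadhb, the subunits of the trifunctional protein that does the last steps of each round on long chains, lie next to each other on chromosome 5 and are read in opposite directions. Hadha was highest in WT MAT2Ai 3 at 183 CPM and Hadhb in the same library at 72.8 CPM. Their group ranges overlapped throughout, 133 to 183 CPM for Hadha and 44.0 to 72.8 CPM for Hadhb in WT MAT2Ai, and 153 to 179 CPM and 53.5 to 65.4 CPM in SP MAT2Ai. Neither was called in any comparison. The thioesterases Acot1 and Acot2 and the thiolases Acaa1a and Acaa1b are close copies. The count files list alignments to more than 1 place apart from the genes, at 48.3 to 63.6 per 100 gene counts. Reads that these copies share may therefore be missing from their counts. Of the 41 genes 9 share exon bases with a gene on the opposite strand whose mean is over 1 CPM, among them Acaa1b with Dlec1 at 46.2 CPM, while Ehhadh, Abcd3 and Cd36 share none with another annotated gene.

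Beyond the 41 genes 106 others of fatty acid metabolism and PPAR control were listed, also with earlier results known, and 99 were tested. In SP MAT2Ai against WT MAT2Ai 2 of the 99 rose and 1 fell, beside 104 and 194 of all 16152 genes tested. An unadjusted p under 0.05 was found for 44 of the 99, 44.4% beside 21.8% of all genes tested. Lpl, lipoprotein lipase, was at 312 to 468 CPM in WT MAT2Ai and at 541 to 711 CPM in SP MAT2Ai (log2 fold change 0.59 ± 0.11, edgeR adjusted p = 0.0266). Acot12, an acetyl-CoA thioesterase, was at 149 to 211 CPM and 209 to 334 CPM (0.55 ± 0.10, edgeR adjusted p = 0.0266). Plin4, a lipid droplet coat protein, fell by 2.48 on the log2 scale (SE 0.55, edgeR adjusted p = 0.0363), and was at 1.36 to 15.5 CPM in WT MAT2Ai and 0.455 to 1.43 CPM in SP MAT2Ai. The 15.5 CPM were in WT MAT2Ai 2 and the other WT MAT2Ai libraries reached 3.37 CPM. Without that library the log2 fold change of Plin4 was −1.38 (edgeR adjusted p = 0.0549). Averaged over treatment 4 of the 99 rose in SP and none fell, beside 98 and 117 of all 16152 genes tested. An unadjusted p under 0.05 was found for 42 (42.4% beside 19.6% of all genes). The 4 included Lpl at a log2 fold change of 0.44 ± 0.08 (edgeR adjusted p = 0.0202) and Acot12 at 0.41 ± 0.07 (edgeR adjusted p = 0.0202). The others were the acyl-CoA synthetase Acsl3 at 0.31 ± 0.06 (edgeR adjusted p = 0.0202) and the acyl-CoA dehydrogenase Acad10 at 0.27 ± 0.06 (edgeR adjusted p = 0.0476). Without the libraries labelled SP placebo 1 and 2 the call of Acad10 was lost (edgeR adjusted p = 0.0699). Those of Lpl, Acot12 and Acsl3 stood. None of the 99 was called in the other 5 comparisons by edgeR. The share with an unadjusted p under 0.05 was 23.2% for MAT2Ai in WT (15.7% of all genes), 19.2% for MAT2Ai averaged over genotype (14.7%), 8.08% for SP against WT under placebo (3.75%), 7.07% for the interaction (5.59%) and 5.05% for MAT2Ai in SP (5.92%). Those genes by DESeq2 and limma-voom were not analysed here.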

How the data were processed

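Kidney cortex RNA of 20 mice, 5 per group by the labels, was poly(A) selected, made into directional libraries and sequenced on a NovaSeq 6000. The authors aligned reads with STAR 2.5.2 to the mm10 genome and deposited unscaled htseq-count gene counts for Ensembl release 78. The strand setting is not given in the sources used here. A label mentions nuclei, although the methods and libraries are of bulk cortex.

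Symbols and coordinates came from GENCODE M21. Reads outside genes were 3.87% to 5.50% and the 5 summary lines per file were left out. Low counts were removed by filterByExpr, TMM set the scale, and 1 edgeR 4.0.16 quasi-likelihood model (R 4.3.3) of 4 group coefficients and all 20 libraries gave every comparison. P-values were adjusted over all 16152 genes by Benjamini-Hochberg, and genes with an adjusted p under 0.05 were called. Alternatives were DESeq2 1.42.0, limma-voom 3.58.1 with sample weights, other size factors, no filter, a replicate block and libraries left out. Only the model fits were tested on simulated data, and the other steps were not. Lengths are those of the APPRIS principal transcript.

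The 41 genes and the other lists were chosen with earlier results of these data known. Fold changes with SE were given for called genes and the 4 smallest p per comparison, and values per library for those in 2-group comparisons, Ppara and Cpt1a. Other genes were named after their values were seen. Promoter windows came from RefSeq GRCm38.p6.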

Additional observations from a re-analysis of the deposited data

Results flagged for a closer look

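In 7 of 164 pairs of gene and group 1 library stood apart from the other 4 by more than a gap of 0.71 of the range (Dixon's ratio on log2 CPM), where chance alone gives about 1 in 20, or 8.2. Of the 7, 4 were in WT MAT2Ai 2. There Plin2 stood at 269 CPM and Pdk4 at 244 CPM, above the other WT MAT2Ai libraries, and Hadh at 308 CPM and the peroxisomal thiolase Acaa1a at 72.4 CPM, below them. SP MAT2Ai 3 held the highest Eci2 of its group, 119 CPM, and the highest Pex11a, 64.3 CPM. The library labelled SP placebo 1 held the lowest Hsd17b4 of its group, 201 CPM. No explanation was tested for any of them. None of the 41 genes passed the test of a different inhibitor effect in the 2 genotypes.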

How the results depend on the processing

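In the 5 comparisons without a call (MAT2Ai in SP, MAT2Ai in WT, SP against WT under placebo, the interaction and MAT2Ai averaged over genotype) none of the 41 genes was called under any alternative run. In SP MAT2Ai against WT MAT2Ai the 3 calls became 10 with DESeq2, 6 with limma-voom and 1 with the replicate block, and 0 to 9 when 1 library was left out. They were 0 without SP MAT2Ai 3 or 5, 1 without WT MAT2Ai 3 or SP MAT2Ai 1 or 2, and 5 to 9 without WT MAT2Ai 1, 4 or 5 or SP MAT2Ai 4. The median log2 fold change of the 41 there was 0.22 without WT MAT2Ai 2, 3 and 4, and 0.12 to 0.17 when 1 of its libraries was left out. For SP averaged over treatment the 3 calls became 6 with DESeq2, 11 with limma-voom, and 1 to 4 when 1 library was left out. They were 1 without WT placebo 2, 3 or 4, SP placebo 2, 3 or 4, or SP MAT2Ai 1, 3 or 5. For the block and the fits with libraries left out, the share of all genes called is not given here. So a move of the 41 alone cannot be told from a move of all genes in those fits. Expression showed little sign of pairing by replicate number. Over 30 pairs the mean correlation of deviations was −0.02, from −0.16 to 0.27, with 4 over 0.1, and 6 of 20 libraries were closest to their own number. Such correlations cannot show that the animals were unmatched, and the labels do not say. With the block, 2 of the 41 were called for SP averaged over treatment. Without WT MAT2Ai 2, 3 and 4 the sign turned for Angptl4 (−0.75) and Pdk4 (−0.42) with MAT2Ai in WT and for Angptl4 (−0.24) averaged over genotype. For both genes these libraries held the highest WT MAT2Ai values, and only 2 libraries of that group remained. Lower fold changes therefore followed from the choice of libraries left out. The cause of the other moves was not tested. With 5 libraries a group the median SE of a log2 fold change in SP MAT2Ai against WT MAT2Ai was 0.10 over the 41 genes, which limits what these depths and numbers resolve.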
